A study of Rattus norvegicus with 8 samples.

Results

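The nuclear-encoded genes of the respiratory chain were followed in RNA from rat abdominal aorta, 4 libraries after FeCl3 and 4 after saline. Members were chosen by symbol alone: genes whose symbol begins with Nduf (without the Ndufaf assembly factors), Uqcr, Atp5 or Cox4 to Cox8, together with Sdha, Sdhb, Sdhc, Sdhd and Cyc1. This gave 88 of the 18090 genes listed, 40 of complex I, 4 of complex II, 9 of complex III, 17 of complex IV and 18 of complex V. The symbol rule uses no measured value, but it was chosen with earlier results of these data known.

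Complexes I and II pass electrons from NADH and succinate to ubiquinone, complex III passes them on to cytochrome c, and complex IV passes them to oxygen. Complexes I, III and IV pump protons while doing so, and complex V, the ATP synthase, uses the gradient to make ATP. Most subunits are encoded in the nucleus and imported, while a few are encoded in mitochondrial DNA; the mitochondrially encoded genes were not analysed here. Brown fat, heart and skeletal muscle are rich in these complexes. Contractile smooth muscle of large arteries relies comparatively more on glycolysis.

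All 8 libraries came from wild-type rats, and the series calls the 4 replicates of each condition biologically independent. In the FeCl3 group a filter paper carrying 10% FeCl3 was applied to the outside of the vessel for 5 min, a procedure that injures the wall by oxidation and starts a thrombus. In the saline group 0.9% saline was applied for 5 min. The labels place all libraries in batch 1; for age, sex and the time from application to harvest nothing was given in the sources used here. Libraries are called FeCl3 replicates 1 to 4 (titles A1, A5, A7 and A9) and saline replicates 1 to 4 (titles C2, C3, C4 and C7), numbered in the order of deposit.

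Values are FPKM, fragments scaled to gene length and to the library's total, as the authors deposited them. Library totals recovered from the steps between low FPKM values ran from 24304434 to 30283292 fragments. The tissue label was met by the smooth muscle markers, all 8 of which were measured, with a summed FPKM of 3843 to 11036 after FeCl3 and 5047 to 27287 after saline. The 4 cardiac muscle markers measured (Myh6, Tnni3, Nppa and Actc1) stayed under 1 FPKM in all 8 libraries. By recovered fragments, haemoglobin genes took 16.4% to 34.1% of fragments in the FeCl3 libraries and 1.30% to 1.63% in saline replicates 1, 2 and 3, but 16.5% in saline replicate 4. The recovered length of Hbb is uncertain by a factor of 2; at the shorter length these shares would be 14.6% to 33.5%, 1.15% to 1.46% and 14.8%. In bulk RNA of this kind, fewer cells of a type and less RNA per cell cannot be told apart.

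The respiratory chain genes varied widely between individual libraries of both groups, and no difference between FeCl3 and saline was resolved. Together they took 0.976%, 2.38%, 0.780% and 0.915% of fragments in FeCl3 replicates 1 to 4, and 0.682%, 3.58%, 1.01% and 0.869% in saline replicates 1 to 4. The group means were 1.26% ± 0.750 (SD, n = 4) after FeCl3 and 1.54% ± 1.37 (SD, n = 4) after saline. Each group thus held 1 library far above the other 3, FeCl3 replicate 2 and saline replicate 2, and the ranges of the groups overlapped. The exact 95% binomial interval for saline replicate 2 was 3.574% to 3.589% and that for saline replicate 1 was 0.6794% to 0.6853%; such intervals cover counting error only.

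**Figure D1:**
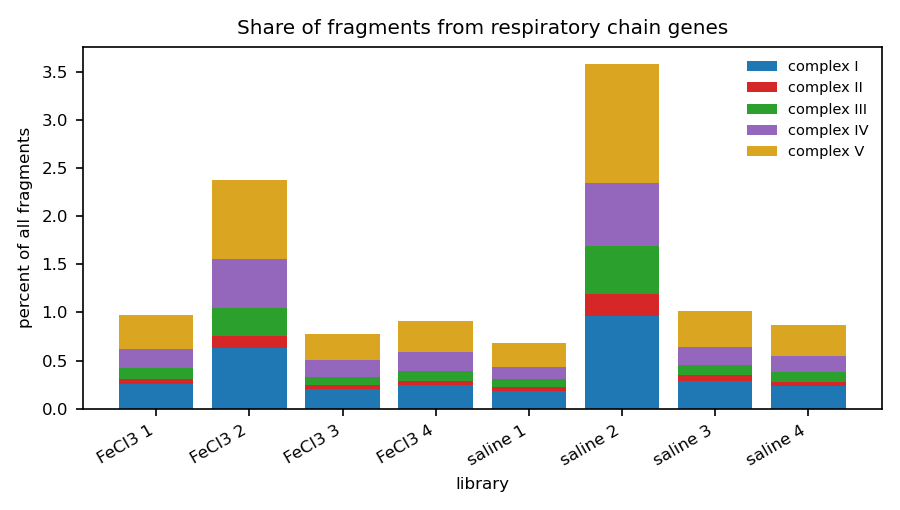
Percent of all fragments assigned to respiratory chain genes (vertical axis) in each of the 8 libraries (horizontal axis), stacked by complex I to V. FeCl3 replicate 2 reached 2.38% and saline replicate 2 reached 3.58%, while the other 6 libraries lay between 0.682% and 1.01%.

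Of the 88 members, 85 passed the filter of at least 1 FPKM in at least 4 of 8 libraries and were tested with 11921 genes in all. By limma on log2(FPKM + 1) with Benjamini-Hochberg adjustment, 0 of 85 members passed an adjusted p of 0.05, against a background of 0% of all genes tested; the count was also 0 with limma voom on recovered fragments. The smallest adjusted p among the members was 0.300 and that among all genes 0.245. At an unadjusted p of 0.05 limma and limma voom each gave 1 member, Atp5if1, higher after FeCl3. Over all genes 16.6% passed that unadjusted level, 4.42% higher and 12.2% lower, and the members' count of 1 in 85 was below these shares. That count depended on the 2 high libraries. With both replicates 2 left out, 3 of 85 members were higher and 0 lower, against 432 and 952 of 11921 genes. A high library in each group widens a member's error, so the count does not show that the members respond less. The FeCl3 and saline libraries did not overlap for 0 of 85 members, higher or lower. Of all genes 1.06% were higher and 8.75% lower in this way, 9.81% together. For 78 of 85 members the highest 2 libraries were FeCl3 replicate 2 and saline replicate 2, 1 of each group. The groups of such a gene must overlap, so this count does not show whether the members respond less to FeCl3.

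Directions were mixed. The log2 difference FeCl3 minus saline was above 0 in 29 of 85 members (34.1%) and in 29.8% of all genes tested, with a median of -0.16 for the members and -0.25 for all genes. It exceeded the median of all genes in 52 of 85 members, 61.2% against 50.0%. The split changed with the scaling: 52 of 85 were above 0 with median-of-ratios scaling, 62 of 85 with haemoglobin genes left out of the total, 38 of 85 with quantile normalization and 2 of 85 with FPKM rescaled to TPM. Over all genes the shares above 0 were 46.2%, 51.2%, 42.5% and 10.2%, in the same order. These scalings moved the median of all genes by 0.20, 0.26, 0.17 and -0.61 on the log2 scale. The log2 differences below are therefore to be read beside the median of all genes, -0.25, and beside that of genes of like length. Of the 85 members 78 fell in the shortest quartile of gene length. In that quartile the median was 0.04 for all genes and -0.13 for the members. Without saline replicate 2 the log2 difference was above 0 in 80 of 85 members, and without FeCl3 replicate 2 in 10 of 85. Over all genes these shares were 37.5% and 26.9%. With the haemoglobin level as a term in the limma fit the log2 difference was above 0 in 81 of 85 members, against 36.7% of all genes. The haemoglobin level nearly follows the groups, apart from saline replicate 4, so this fit cannot well separate it from FeCl3.

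By complex, the medians were -0.19 for complex I (11 members above 0 and 29 below), -0.33 for complex II (0 and 4), -0.20 for complex III (3 and 6), -0.01 for complex IV (7 and 8) and -0.03 for complex V (8 and 9). Relative to the median of all genes these were 0.06, -0.09, 0.05, 0.24 and 0.21. Every complex's median lay below 0.04, the median of all genes in the shortest quartile of length. None of these medians was tested, and each relative median changed sign when single libraries were left out.

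The library pattern was shared by nearly every member. Saline replicate 2 was the highest of the 8 libraries for 66 of 85 members, against 27.4% of all genes, and FeCl3 replicate 2 was the highest for 15, against 9.58%. They were the top pair for 78 of 85 members (91.8%), against 10.6% of all genes. These libraries were singled out by the members' own summed fragments. This favours the members here and in the later comparisons with other genes. The 7 exceptions were Atp5if1, Atp5mc1, Cox4i2, Cox6b2, Cox7a2l, Ndufa4l2 and the pseudogene-like entry Ndufa13-ps1. Across members, the median range between the highest and the lowest library was 2.41 on the log2 scale with all 8 libraries and 0.86 in the 6 libraries without replicates 2.

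**Figure D2:**
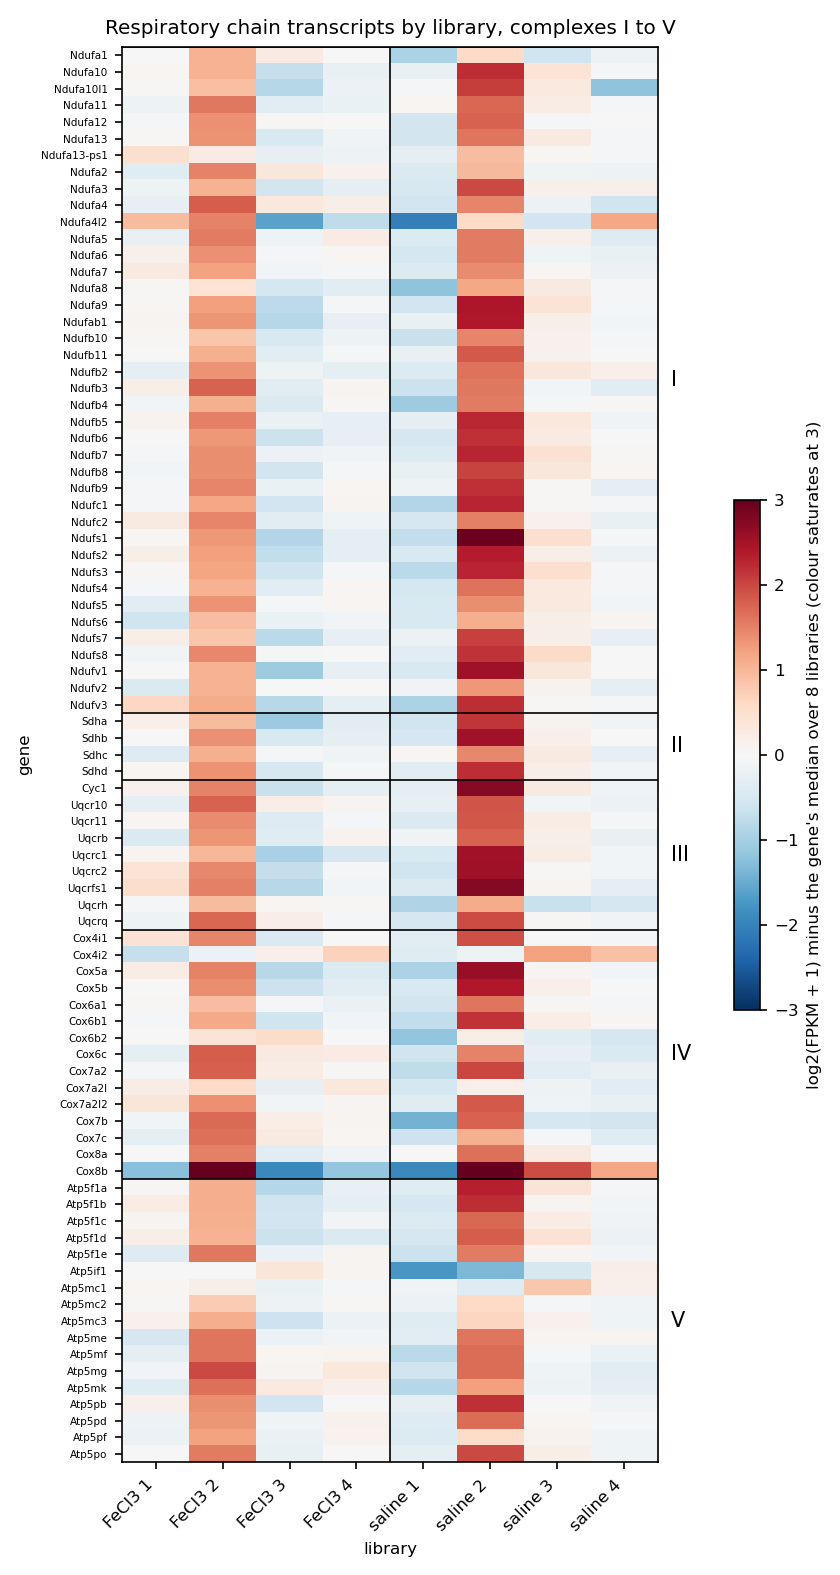
Level of each respiratory chain gene (vertical axis, by complex) in each of the 8 libraries (horizontal axis), coloured by log2(FPKM + 1) minus the gene's median over the 8 libraries, with the colour saturating at 3. The columns of FeCl3 replicate 2 and saline replicate 2 are high from complex I to complex V, and they are the top pair for 78 of 85 members tested.

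Folds were taken of FPKM + 1 in a replicate 2 over the median of the other 3 libraries of its group. The median fold of the members was 2.73 in FeCl3 replicate 2, where all genes had a median of 1.00, and 3.82 in saline replicate 2, where all genes had 1.10. In FeCl3 replicate 2 the fold passed 2 for 74 of 85 members and 8.50% of all genes. In saline replicate 2 it passed 2 for 77 of 85 members and 14.5% of all genes. Both excesses ran through all 5 complexes: the median folds in FeCl3 replicate 2 and saline replicate 2 were 2.59 and 3.69 for complex I, 2.52 and 4.80 for complex II, 3.02 and 4.19 for complex III, 2.94 and 3.95 for complex IV, and 2.62 and 3.37 for complex V.

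The excess of the saline library was the larger one for 71 of 85 members, including 4 of 4 in complex II and 9 of 9 in complex III. In complex V it was the larger for 10 of 17. The steepest folds in saline replicate 2 belonged to Cox8b (99.0), Uqcrfs1 (8.15), Ndufs1 (7.97), Cyc1 (7.28) and Cox5a (6.47), and the lowest to Cox4i2 (0.490), Atp5if1 (0.545) and Atp5mc1 (0.696). In FeCl3 replicate 2 Cox8b (42.3) and Ndufa4l2 (4.74) led.

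**Figure D3:**
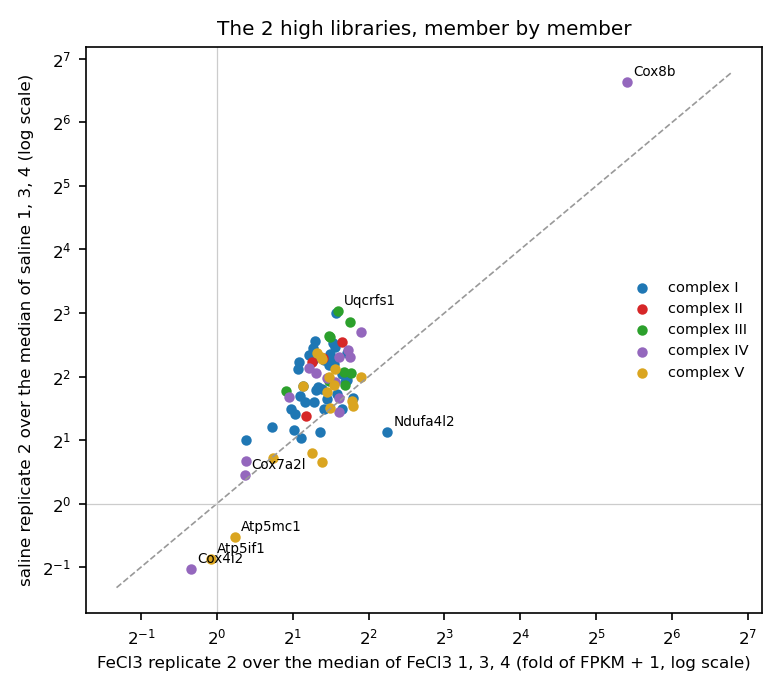
Fold of FPKM + 1 in FeCl3 replicate 2 over the median of FeCl3 replicates 1, 3 and 4 (horizontal axis, log scale) against the same fold for saline replicate 2 (vertical axis, log scale), 1 point per member tested, coloured by complex. Most points lie above 2-fold on both axes and 71 of 85 lie above the dashed line of equal folds; Cox8b stands far out and Cox4i2, Atp5if1 and Atp5mc1 lie low.

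Brown adipocyte markers were highest in saline replicate 2, and several other marker lists differed between these libraries and the rest. Of the 8 brown adipocyte markers listed 6 were measured, all 6 were highest in saline replicate 2, and their summed FPKM was 84.8, 240, 29.3 and 39.9 in FeCl3 replicates 1 to 4 and 28.5, 7197, 94.6 and 64.7 in saline replicates 1 to 4. Ucp1, the uncoupling protein that defines brown adipocytes, stood at 6272 FPKM in saline replicate 2, 76.5 in FeCl3 replicate 2 and 53.1 in saline replicate 3, and between 0.0275 and 11.7 in the other 5. In saline replicate 3 the respiratory chain genes took 1.01% of fragments, the highest share after the replicates 2 and close to FeCl3 replicate 1. The 8 white adipocyte markers did not follow the respiratory chain genes as closely: they summed to 12545, 11729, 478 and 3157 FPKM in FeCl3 replicates 1 to 4 and 1.93, 9219, 368 and 2051 in saline replicates 1 to 4. They were highest in FeCl3 replicate 1, where the respiratory chain genes took 0.976% of fragments. Smooth muscle markers were at their lowest saline sum in saline replicate 2 (5047 FPKM, against 10019 to 27287 in the other 3) and stood at 7190 in FeCl3 replicate 2, against 3843 to 11036 over the FeCl3 group. In FeCl3 replicate 2 fibroblast (2987 FPKM), platelet (2518) and neutrophil (143) markers had their highest sums of the 8 libraries. The 4 mesothelial markers were all highest in saline replicate 2, with a sum of 211 FPKM there and Lrrn4 under 1. The 9 skeletal muscle markers summed to 14.8 to 57.8 FPKM after FeCl3 and 18.0 to 29.9 after saline, with Myh4, Myh1 and Actn3 under 1 in all libraries. The part of any of these cells in the excess was not tested.

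Promoter sequence was compared because the members moved together across libraries. RefSeq promoters of the GRCr8 build, from 250 bases before to 50 bases after the annotated start, were matched for 75 of 88 members. Matching was by gene identifier and, where none was found, by symbol. Both strands were searched for 5 motifs of factors known to act on genes of this kind or on promoters in general. The NRF1 motif, GCGCA and GCGC with 1 free base between them, was present in 14 of 75 (18.7%) against 4.26% of all 33365 promoters, the ETS motif CCGGAAG bound by GABPA in 21 (28.0%) against 8.77%, and the YY1 motif AAGATGGCG in 10 (13.3%) against 1.74%. The SP1 motif GGGCGG was present in 32 (42.7%) against 33.1%, and TATAAA in 8 (10.7%) against 14.2%. In complexes I to V, NRF1 was in 7 of 35, 1 of 4, 1 of 6, 0 of 14 and 5 of 16 promoters. YY1 was in 7, 0, 1, 0 and 2 of them, and ETS in 7, 2, 3, 4 and 5. Each member counts with a single promoter, while the background counts every distinct promoter sequence. None of these motifs contains another. A match describes letters in a window and is no evidence of binding.

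The 120 bases before the annotated start of 4 members are printed below, 5' to 3' on the gene's strand, with complete motif matches on either strand in capitals. Cox4i1 (chr19:65630263-65630382, plus strand) and Uqcrc1 (chr8:118468103-118468222, plus strand) were high in both replicates 2, Cox8b (chr1:205408274-205408393, minus strand) had the steepest excess, and Atp5if1 (chr5:150026678-150026797, minus strand) did not share it.
Cox4i1: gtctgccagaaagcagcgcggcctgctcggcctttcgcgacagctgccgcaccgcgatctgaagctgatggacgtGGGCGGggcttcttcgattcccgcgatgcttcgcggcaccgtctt
Uqcrc1: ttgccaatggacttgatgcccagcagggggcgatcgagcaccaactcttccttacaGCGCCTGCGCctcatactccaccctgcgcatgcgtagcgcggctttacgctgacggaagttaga
Cox8b: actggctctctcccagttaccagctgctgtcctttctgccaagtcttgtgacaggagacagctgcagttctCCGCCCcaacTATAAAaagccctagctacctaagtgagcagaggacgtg
Atp5if1: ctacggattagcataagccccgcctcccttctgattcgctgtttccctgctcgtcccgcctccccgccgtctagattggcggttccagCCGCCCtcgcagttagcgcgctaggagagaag
The capitals mark an SP1 match in Cox4i1, an NRF1 match in Uqcrc1, an SP1 and a TATAAA match in Cox8b, and an SP1 match in Atp5if1. Of the 4, only Cox8b held TATAAA in this stretch. Cox4i1 held 2 ETS matches after its start, outside the stretch printed.

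In complex I, the NADH dehydrogenase, 40 of 40 members were tested and the log2 differences ran from -0.66 to 0.60. The core subunit Ndufs1, which carries iron-sulfur clusters, had FPKM of 36.7, 89.3, 18.8 and 29.5 in FeCl3 replicates 1 to 4 and 20.7, 280, 49.6 and 34.3 in saline replicates 1 to 4. Its log2 difference was -0.60 (SE 0.79, limma adjusted p 0.706), and the groups overlapped. Ndufv1, which binds NADH and flavin and had the lowest difference of the complex, measured 64.0, 132, 29.8 and 53.2 FPKM after FeCl3 and 45.6, 374, 80.6 and 62.5 after saline (log2 difference -0.66, SE 0.68, limma adjusted p 0.628). In both genes saline replicate 2 alone lifted the saline mean, to 96.2 FPKM ± 123 (SD, n = 4) for Ndufs1 and 141 ± 156 (SD, n = 4) for Ndufv1.

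The small accessory subunit Ndufa1 had the highest difference of complex I. Its FPKM was 246, 509, 294 and 251 after FeCl3 and 129, 369, 164 and 223 after saline (log2 difference 0.60, SE 0.39, limma adjusted p 0.442). Here FeCl3 replicate 2 was the highest library, and the FeCl3 values overlapped only with saline replicate 2. Ndufb9, an accessory subunit of the membrane arm, measured 145, 410, 128 and 154 after FeCl3 and 132, 681, 150 and 123 after saline, a log2 difference of -0.13 (SE 0.61, limma adjusted p 0.927). Without the 2 replicates 2 its 6 values lay between 123 and 154.

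Ndufa4 is placed here by its symbol, although its protein is now regarded as a subunit of complex IV, and it had the highest mean FPKM of the genes counted under complex I. It measured 225, 950, 332 and 303 FPKM after FeCl3 and 179, 740, 238 and 178 after saline, with a log2 difference of 0.48 (SE 0.59, limma adjusted p 0.683). Its paralog Ndufa4l2, a hypoxia-inducible gene, was low, at 6.94, 10.6, 0.365 and 1.45 after FeCl3 and 0, 5.10, 1.79 and 8.15 after saline (log2 difference 0.25, SE 0.85, limma adjusted p 0.896). These values were spread within both groups, and the count of 0 in saline replicate 1 allows up to 0.0847 FPKM.

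Complex II, succinate dehydrogenase, is encoded wholly in the nucleus and also serves the tricarboxylic acid cycle. Sdha, its flavoprotein, had FPKM of 93.7, 164, 39.3 and 68.1 after FeCl3 and 55.4, 377, 90.7 and 79.4 after saline (log2 difference -0.46, SE 0.64, limma adjusted p 0.722). Sdhb, the iron-sulfur subunit, had 83.5, 216, 59.5 and 68.3 after FeCl3 and 58.1, 482, 91.3 and 81.8 after saline (log2 difference -0.38, SE 0.68, limma adjusted p 0.791). Saline replicate 2 was highest for all 4 genes of the complex.

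The membrane anchors differed in the size of the excess. Sdhc measured 107, 295, 134 and 130 after FeCl3 and 146, 384, 168 and 117 after saline, a 2.61-fold excess in saline replicate 2 (log2 difference -0.25, SE 0.45, limma adjusted p 0.791). Sdhd measured 88.7, 218, 60.9 and 81.6 after FeCl3 and 68.3, 398, 98.1 and 80.7 after saline, a 4.89-fold excess (log2 difference -0.29, SE 0.61, limma adjusted p 0.821).

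In complex III, the cytochrome bc1 complex, 9 of 9 members were tested and saline replicate 2 was the highest library for all 9. The core protein Uqcrc1 measured 86.3, 163, 40.9 and 57.1 FPKM after FeCl3 and 58.3, 471, 95.1 and 75.9 after saline (log2 difference -0.64, SE 0.68, limma adjusted p 0.638). Uqcrfs1, the Rieske iron-sulfur protein, measured 118, 236, 45.6 and 77.5 after FeCl3 and 60.6, 554, 86.4 and 67.2 after saline (log2 difference -0.25, SE 0.76, limma adjusted p 0.884). Cyc1, cytochrome c1, measured 70.3, 182, 39.8 and 53.0 after FeCl3 and 52.8, 430, 77.5 and 58.3 after saline (log2 difference -0.48, SE 0.72, limma adjusted p 0.747). All 3 catalytic or core genes had 6.14-fold to 8.15-fold excesses in saline replicate 2.

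The hinge protein gene Uqcrh had the highest log2 difference of the complex. It measured 339, 664, 358 and 352 FPKM after FeCl3 and 185, 743, 218 and 243 after saline, a log2 difference of 0.49 (SE 0.47, limma adjusted p 0.603). FeCl3 replicates 1, 3 and 4 lay above saline replicates 1, 3 and 4, and the groups overlapped through saline replicate 2.

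Complex IV, cytochrome c oxidase, has tissue isoforms for several subunits. Of its 17 members 15 were tested. Cox4i1, the general form of subunit 4 and the most abundant gene of the complex, measured 740, 1502, 403 and 549 FPKM after FeCl3 and 428, 2078, 539 and 526 after saline, a log2 difference of -0.01 (SE 0.59, limma adjusted p 0.995). The hypoxia-responsive form Cox4i2 stayed low, at 2.35, 3.79, 5.04 and 7.86 after FeCl3 and 3.21, 3.92, 11.5 and 9.05 after saline (log2 difference -0.40, SE 0.44, limma adjusted p 0.647). It was not high in either replicate 2.

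Cox5a measured 151, 365, 72.1 and 97.3 after FeCl3 and 65.9, 790, 137 and 121 after saline (log2 difference -0.29, SE 0.78, limma adjusted p 0.866). Cox6a1, the general form of subunit 6a, measured 383, 701, 360 and 322 after FeCl3 and 252, 1139, 382 and 354 after saline (log2 difference -0.08, SE 0.49, limma adjusted p 0.941). For both the 2 groups overlapped widely and saline replicate 2 was the highest library. Cox6c, a small subunit, measured 382, 1630, 558 and 553 after FeCl3 and 306, 1306, 389 and 343 after saline (log2 difference 0.46, SE 0.59, limma adjusted p 0.698), with FeCl3 replicate 2 the highest.

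Cox7a2, the general form of subunit 7a, measured 233, 841, 281 and 248 FPKM after FeCl3 and 141, 962, 194 and 205 after saline (log2 difference 0.33, SE 0.66, limma adjusted p 0.808). Cox7a2l, whose product helps join complexes III and IV in supercomplexes, varied least between libraries of the complex IV genes tested. It measured 161, 208, 116 and 172 after FeCl3 and 95.9, 154, 125 and 112 after saline (log2 difference 0.42, SE 0.26, limma adjusted p 0.420). Reads of Cox7a2l and its near-copy Cox7a2l2 may be split uncertainly, as may those of Ndufa10 and Ndufa10l1 and of Ndufa13 and Ndufa13-ps1.

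Cox6b2, known as the testis form of subunit 6b, had the highest log2 difference of complex IV at a low level. It measured 3.06, 4.26, 4.89 and 3.03 FPKM after FeCl3 and 0.783, 3.60, 2.19 and 1.87 after saline, with means of 3.81 ± 0.920 (SD, n = 4) and 2.11 ± 1.16 (SD, n = 4). The log2 difference was 0.69 (SE 0.31, limma adjusted p 0.309), and the groups overlapped through saline replicate 2. It was among the 7 genes whose top pair was not the replicates 2.

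Cox8a, the general form of subunit 8, measured 381, 1080, 306 and 352 after FeCl3 and 379, 1203, 458 and 364 after saline (log2 difference -0.19, SE 0.52, limma adjusted p 0.867). Cox8b, the form of heart, skeletal muscle and brown fat, measured 0.597, 66.5, 0 and 0.709 after FeCl3 and 0, 834, 13.8 and 7.43 after saline. These values rest on 5, 581, 0 and 6 fragments and on 0, 6467, 132 and 60 fragments. The log2 difference was -2.29 with an SE of 2.05 (limma adjusted p 0.576), the widest error among the members tested; it was -0.44 without saline replicate 2 and -3.68 without FeCl3 replicate 2. Saline replicate 2 and FeCl3 replicate 2 were again the highest libraries, and they also held the highest Ucp1.

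Isoform use was expressed as the percent of the paired genes' summed FPKM, a ratio within each library. Cox8b made up 0.156%, 5.80%, 0% and 0.201% of Cox8a plus Cox8b after FeCl3 and 0%, 41.0%, 2.92% and 2.00% after saline, with upper limits for the counts of 0 of 0.119% and 0.0818%. Cox4i2 made up 0.317%, 0.252%, 1.24% and 1.41% of Cox4i1 plus Cox4i2 after FeCl3 and 0.745%, 0.188%, 2.09% and 1.69% after saline. Saline replicate 2 thus had the highest share of Cox8b and the lowest of Cox4i2.

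Cox6a2, the form of heart and skeletal muscle, made up 0.489% of Cox6a1 plus Cox6a2 in FeCl3 replicate 1 and 0% to 0.0687% in the other 7, where the 3 counts of 0 allow up to 0.0637%, 0.0776% and 0.0214%. Ndufa4l2 made up 3.00%, 1.11%, 0.110% and 0.477% of Ndufa4 plus Ndufa4l2 after FeCl3 and 0%, 0.685%, 0.750% and 4.36% after saline. Atp5mc1 made up 10.4%, 6.37%, 12.4% and 10.8% of the 3 Atp5mc genes, which encode the same c-ring subunit, after FeCl3 and 11.9%, 5.50%, 16.6% and 12.6% after saline. Its share was lowest in both replicates 2.

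For none of the 5 shares did the difference between FeCl3 and saline exceed the spread of the libraries. The differences of the means were -9.93 percentage points for Cox8b (exact two-sided permutation p 0.543), -0.374 for Cox4i2 (exact permutation p 0.486), 0.108 for Cox6a2 (exact permutation p 0.629), -0.277 for Ndufa4l2 (exact permutation p 0.771) and -1.65 for Atp5mc1 (exact permutation p 0.486). The Benjamini-Hochberg adjusted exact permutation p over the 5 was 0.771 for each, and the smallest p that 4 against 4 libraries allow is 0.0286. The Cox8b difference was -0.101 without saline replicate 2, and that of Cox4i2 was -0.0713 without saline replicate 3. The sign of the Cox6a2, Ndufa4l2 and Atp5mc1 differences depended on single libraries: they were -0.0115 without FeCl3 replicate 1, 0.695 without saline replicate 4 and 0.00265 without saline replicate 3. The Cox7a1 share was not analysed here.

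Of complex V, the ATP synthase, 17 of 18 members were tested. The catalytic subunit Atp5f1b had the highest mean FPKM of all members, with 660, 1210, 374 and 467 after FeCl3 and 400, 2630, 604 and 533 after saline (log2 difference -0.32, SE 0.63, limma adjusted p 0.808). Its partner Atp5f1a measured 238, 495, 127 and 198 after FeCl3 and 179, 1178, 305 and 226 after saline (log2 difference -0.57, SE 0.64, limma adjusted p 0.656). Both followed the common pattern, with 4.93-fold and 5.19-fold excesses in saline replicate 2.

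The c-ring genes had smaller excesses in saline replicate 2. This was not particular to them, as Atp5pf of the same complex had a 1.58-fold excess there. Atp5mc1 measured 44.0, 47.7, 36.5 and 40.2 FPKM after FeCl3 and 38.9, 32.1, 74.6 and 46.5 after saline (log2 difference -0.12, SE 0.28, limma adjusted p 0.838), and saline replicate 2 was its lowest library. Atp5mc2 and Atp5mc3 had 1.64-fold and 1.73-fold excesses in that library. In FeCl3 replicate 2, the highest library of both, they had 1.67-fold and 2.39-fold excesses, against 2.49 for Atp5f1a and 2.59 for Atp5f1b.

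Atp5if1 encodes the inhibitor that binds the synthase and stops it from hydrolysing ATP, and it is also known to be needed for haem synthesis in developing red cells. It measured 405, 398, 517 and 422 FPKM after FeCl3 and 119, 156, 287 and 458 after saline, with means of 435 ± 55.1 (SD, n = 4) and 255 ± 153 (SD, n = 4). Saline replicates 1, 2 and 3 lay below every FeCl3 library, and saline replicate 4 lay above all but FeCl3 replicate 3. The log2 difference was 0.96 (SE 0.42, limma unadjusted p 0.0483, adjusted p 0.300), the highest of the 85 members. The haemoglobin share of fragments was 1.30% to 1.63% in saline replicates 1, 2 and 3 and 16.4% to 34.1% in the other 5 libraries. That share nearly follows the groups, so a fit with it cannot well separate it from FeCl3. Any link of Atp5if1 to haemoglobin was not tested. With the haemoglobin level as a term in the limma fit the log2 difference was -0.24 (adjusted p 1.000), with FPKM rescaled to TPM 0.22 (adjusted p 0.638), and without saline replicate 4 it was 1.31 (adjusted p 0.140).

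**Figure D4:**
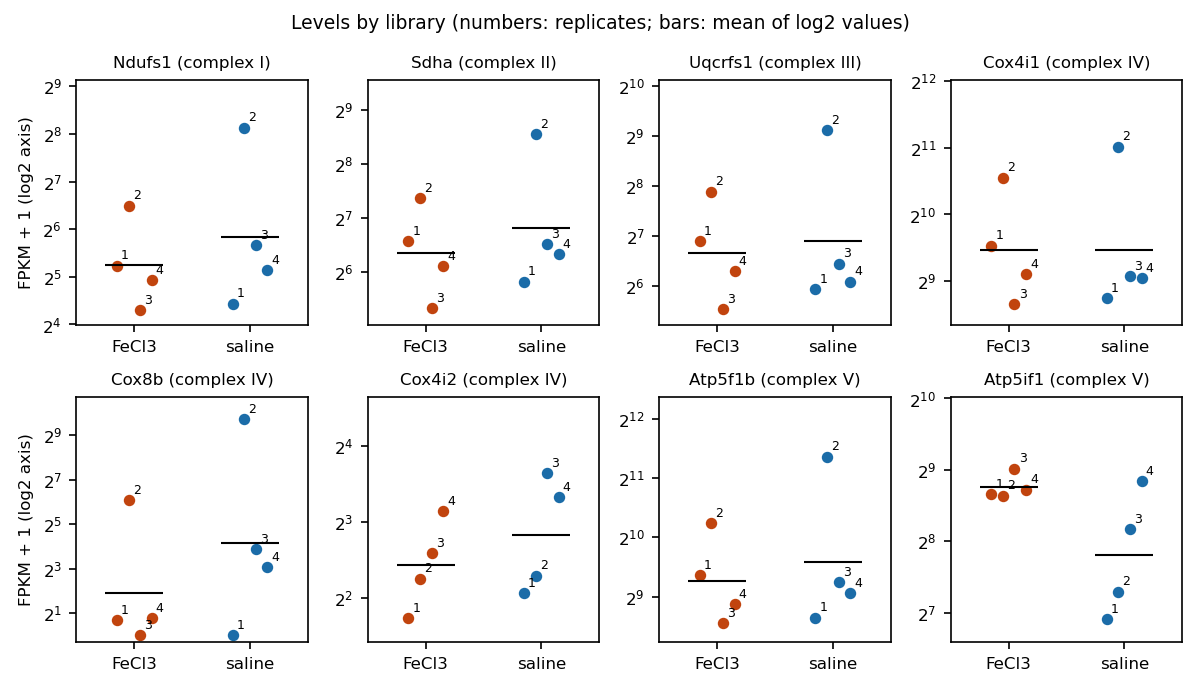
FPKM + 1 (vertical axes, log2 scale) of selected respiratory chain genes in the 4 FeCl3 and 4 saline libraries, 1 panel per gene, with points numbered by replicate and bars at the mean of the log2 values. Replicate 2 is the highest point of its group in 6 of the 8 panels, while for Atp5if1 saline replicates 1 to 3 lie at 119 to 287 FPKM and the other 5 libraries at 398 to 517.

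The 3 members that were not tested were scarcely measured. Cox6a2 had 25 fragments in FeCl3 replicate 1 (1.88 FPKM) and at most 4 in any other library. Cox8c, the testis form of subunit 8, had 1 fragment in saline replicate 3, and Atp5hl1, an Atp5-like entry, had 1 in saline replicate 2 and 1 in saline replicate 3. For Cox8c and Atp5hl1 the counts of 0 elsewhere allow at most 0.224 FPKM per library.

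The balance between complexes was narrower than the level of the whole. Complex IV took 20.3%, 21.5%, 22.1% and 20.8% of the members' fragments after FeCl3 and 19.0%, 18.3%, 18.1% and 19.1% after saline, with means of 21.2% ± 0.781 (SD, n = 4) and 18.6% ± 0.497 (SD, n = 4). Complex II took 5.52%, 5.13%, 4.98% and 5.28% after FeCl3 and 6.55%, 6.44%, 6.16% and 5.81% after saline, with means of 5.23% ± 0.233 (SD, n = 4) and 6.24% ± 0.330 (SD, n = 4). For these 2 complexes the groups did not overlap. The shares of complexes I, III and V overlapped, at 25.7% to 26.6% against 26.5% to 27.9%, 11.3% to 12.1% against 10.9% to 13.9%, and 34.6% to 36.7% against 34.6% to 37.6%. The shares were compared after the values were seen and carry no test; the 5 of them sum to the whole, so that 1 cannot rise without another falling.

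Complex IV, with a higher share after FeCl3, had the shortest median gene length, and complex II, with a lower share, the longest. Length did not order all complexes. Complex III was nearly as long as complex II, with mean shares of 11.7% after FeCl3 and 11.9% after saline. The median length recovered from the FPKM steps was 495 bases for complex IV, 809 for complex V, 679 for complex I, 1182 for complex III and 1249 for complex II. In the third of members with the shortest genes (289 to 550 bases) the median log2 difference was 0.03, with 17 of 29 above 0; in the middle (551 to 972 bases) it was -0.12, with 8 of 28; in the longest (1042 to 5529 bases) it was -0.30, with 4 of 28. Over all tested genes the shortest quartile (230 to 1780 bases) had a median of 0.04 and the longest -0.46, and 78 of 85 members fell in the shortest. Within that quartile the members' median of -0.13 lay below that of all its genes. The part of length in the balance between complexes was not tested.

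**Figure D5:**
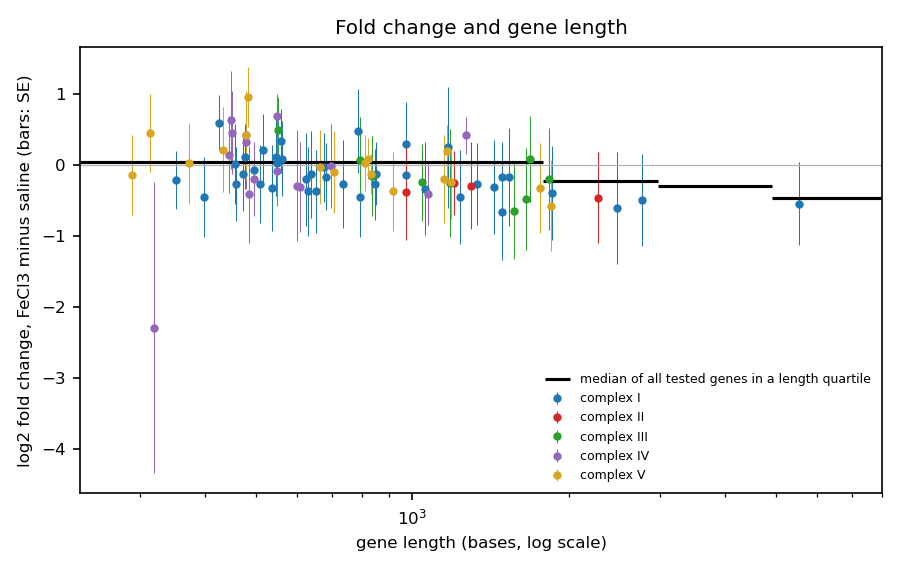
Log2 difference FeCl3 minus saline of each member tested (vertical axis) against its recovered gene length in bases (horizontal axis, log scale), coloured by complex, with bars of 1 SE and black lines at the median of all tested genes in each length quartile. The shortest members have a median of 0.03 and the longest a median of -0.30.

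When each library was centred on the median of the respiratory chain genes, the groups did not overlap for 8 of 85 members. Ndufa6, Ndufb3 and Uqcrh were higher after FeCl3 (3 of 85, against 0.226% of all genes), and Atp5f1a, Ndufa10, Ndufa3, Ndufv1 and Uqcrc1 were lower (5 of 85, against 0.403%). For Uqcrh the centred log2 levels were 1.63, 1.44, 2.15 and 1.84 after FeCl3 and 1.40, 0.96, 0.94 and 1.41 after saline. For Ndufa3, an accessory subunit, they were -0.88, -0.87, -0.85 and -0.88 after FeCl3 and -0.58, -0.56, -0.63 and -0.33 after saline. The limma adjusted p was 1.000 for all 8. Centring removes by construction what the members share and leaves it in other genes, so the background shares are not on equal terms.

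Genes that work with the chain were counted from lists of their own. The 10 carriers of electrons and nucleotides had median folds of 2.39 in FeCl3 replicate 2 and 3.43 in saline replicate 2. Cycs, cytochrome c, measured 105, 400, 80.0 and 98.7 FPKM after FeCl3 and 82.2, 872, 108 and 81.4 after saline (log2 difference -0.23, SE 0.83, limma adjusted p 0.900). The 16 genes of the tricarboxylic acid cycle had median folds of 2.72 and 6.21, and for all 16 saline replicate 2 was the highest library. Their median log2 difference was -0.58 (-0.33 relative to all genes), with 0 of 16 above 0, and Cs, citrate synthase, stood at -0.75 (SE 0.71, limma adjusted p 0.595). These genes too followed the replicates 2.

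The 42 assembly factors, which build the complexes, had lower median folds, 1.66 and 2.15, with a median log2 difference of -0.14 (0.10 relative to all genes) and 15 of 42 above 0. The 15 regulators had 14 tested, with median folds of 1.09 and 1.85 and a median log2 difference of -0.33 (-0.08 relative to all genes), 2 of 14 being above 0. By limma no gene of these 4 lists passed an adjusted p of 0.05. At an unadjusted p of 0.05, 2 of 42 assembly factors and 1 of 14 regulators were lower after FeCl3, below the 12.2% of all genes, and 0 in any of the lists were higher, against 4.42%.

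Among the regulators, Ppargc1a, the coactivator that drives mitochondrial biogenesis and brown fat thermogenesis, reached 31.1 FPKM in saline replicate 2 and lay between 0.117 and 1.02 in the other 7; it failed the filter. Nrf1, whose motif was counted above, had 1.18 FPKM in FeCl3 replicate 2, its lowest library, and 1.69 in saline replicate 2, against 1.43 to 2.35 in the other 6 (log2 difference -0.14, SE 0.21, limma adjusted p 0.752). Tfam, the factor that packages mitochondrial DNA, had 26.4 and 34.6 FPKM in those libraries (log2 difference 0.18, SE 0.36, limma adjusted p 0.810). Thus Ppargc1a and Tfam were highest in saline replicate 2, and Nrf1 was not.

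Ribosomal protein genes, also short and coordinately expressed, are given for comparison. The 84 cytosolic ribosomal protein genes tested had median folds of 1.85 in FeCl3 replicate 2 and 1.46 in saline replicate 2, and for 72 of 84 FeCl3 replicate 2 was the highest library. The 74 mitochondrial ribosomal protein genes had 1.83 and 2.26. All genes of the shortest quartile of length had 1.31 and 1.30. The respiratory chain genes, at 2.73 and 3.82, exceeded each of these in both libraries, which were singled out by the members' own fragments. With 1 library of each kind no test of this difference was made.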

How the data were processed

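The values were FPKM per gene and library as deposited by the authors. Per the submitters' processing notes the tools were fastp, HISAT2 and HTSeq and the build mRatBN7.2; neither versions nor the annotation are given in the sources used here. Per the labels' protocols the mirVana kit gave the RNA, and the VAHTS Universal V6 kit the polyA libraries. Columns were matched to samples by title.

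Library totals and gene lengths were recovered from the steps between low FPKM values. Fragments came out whole within 0.02 in all libraries for 99.92% of 18090 genes, and the fragments of 2 genes, Hbb and Pkm, were doubled to reach the total, so their lengths are uncertain by a factor of 2. The alternatives that use the haemoglobin share rest on the doubled Hbb. The recovery was checked on simulated data. No 2 libraries held the same fragments in more than 1.31% of genes.

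FeCl3 was compared with saline by limma 3.58.1 (R 4.3.3) with a trend, two-sided, on log2(FPKM + 1), for genes with at least 1 FPKM in at least 4 of 8 libraries, with Benjamini-Hochberg adjustment over 11921 genes and a threshold of 0.05. Such fold changes understate those of low genes. Isoform shares were compared by exact permutation. Voom on the recovered fragments and the other alternatives are given in the closing section. A count of 0 was read as allowing up to 3 fragments.

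Members and lists were chosen with earlier results of these data known. Named were a set list of subunits, then in each complex the gene with the highest mean FPKM and those with the highest and lowest log2 difference, and all members that were not tested; other members are named only with counts, in contrasts noticed after the values were seen, or where marker and sequence comparisons called for them. Ndufa4 and Ndufa4l2 were counted under complex I.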

Additional observations from a re-analysis of the deposited data

Results flagged for a closer look

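Within each group of 4 libraries, values were compared with Dixon's criterion, which sets the gap between an extreme library and its neighbour against the range; chance alone passes it in about 1 in 20 groups. Over the 85 members tested, 22 of 170 pairs of a gene and a group passed it. The share over all genes tested is not given here, so this count is not read as particular to the members. Among the named genes, FeCl3 replicate 2 stood apart for Ndufb9 (410 FPKM), Uqcrh (664), Cox7a2 (841) and Cox8b (66.5). Saline replicate 2 stood apart for Ndufb9 (681 FPKM), Uqcrfs1 (554), Cox4i1 (2078) and Cox6c (1306).

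The median log2 level of the respiratory chain genes above the library's median gene set the same 2 libraries apart, at 5.01 in FeCl3 replicate 2 and 5.23 in saline replicate 2. By complex this level was 4.52 and 4.69 for complex I, 4.84 and 5.27 for complex II, 6.24 and 6.36 for complex IV, and 6.03 and 6.14 for complex V in FeCl3 replicate 2 and saline replicate 2. For complex III the level of 5.54 in saline replicate 2 passed the criterion and that of FeCl3 replicate 2 did not.

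Among the isoform shares, Cox8b stood apart at 5.80% in FeCl3 replicate 2 and 41.0% in saline replicate 2, and Cox6a2 at 0.489% in FeCl3 replicate 1. These values share libraries and genes and are not independent of each other.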

How the results depend on the processing

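The count of respiratory chain genes past an adjusted p of 0.05 was 0 in all 24 alternatives. The count over all genes, 0 by limma, was 3153 with FPKM rescaled to TPM (59 higher and 3094 lower), 51 with only saline replicates 2 and 3 as controls, and 0 to 160 when single libraries were left out (160 without saline replicate 4). Relative to all genes, the members' median of 0.09 ran from -0.24 (without FeCl3 replicate 2) to 0.46 (without saline replicate 2), was 0.86 with the haemoglobin level as covariate, and was 0.18 without both replicates 2 and -0.35 with only saline replicates 2 and 3 as controls. With the haemoglobin covariate the medians of complexes I to V were 0.84, 0.85, 1.07, 0.91 and 0.80, and the cause was not tested. No paired analysis was possible because the titles of the FeCl3 and saline libraries share fewer than 2 numbers and the replicate numbers only follow the order of deposit. The 2 alternatives of, leaving out both replicates 2 and centring on the members, were chosen after seeing the data.

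The log2 differences of named genes changed sign under these settings. With only saline replicates 2 and 3 as controls they were -0.13 for Ndufa4, -0.11 for Cox6c and -0.34 for Cox7a2. With the haemoglobin level as covariate they were 0.71 for Ndufs1, 0.51 for Ndufv1, 1.05 for Ndufb9, -0.70 for Ndufa4l2, 0.53 for Sdha, 0.67 for Sdhb, 0.71 for Sdhc, 0.77 for Sdhd, 0.51 for Uqcrc1, 1.17 for Uqcrfs1, 0.87 for Cyc1, 0.87 for Cox4i1, 0.79 for Cox5a, 0.52 for Cox6a1, 0.75 for Cox8a, 0.37 for Cox8b, 0.56 for Atp5f1a, 0.64 for Atp5f1b and -0.24 for Atp5if1. With median-of-ratios scaling they were 0.12 for Ndufb9, 0.23 for Cox4i1, 0.16 for Cox6a1, 0.05 for Cox8a and 0.12 for Atp5mc1. With quantile normalization they were 0.01 for Ndufb9 and 0.06 for Atp5mc1. With haemoglobin genes left out of the total they were 0.19 for Ndufb9, 0.07 for Sdhc, 0.02 for Sdhd, 0.07 for Uqcrfs1, 0.31 for Cox4i1, 0.02 for Cox5a, 0.24 for Cox6a1, 0.12 for Cox8a and 0.19 for Atp5mc1. With array weights they were 0.18 for Ndufb9, -0.21 for Ndufa4l2, 0.11 for Uqcrfs1, 0.20 for Cox4i1, 0.03 for Cox6a1 and 0.02 for Cox8a. With both replicates 2 left out they were 0.08 for Ndufb9, 0.08 for Uqcrfs1, 0.14 for Cox4i1 and 0.13 for Cox6a1. With FPKM rescaled to TPM they were -0.25 for Ndufa4, -0.14 for Ndufa4l2, -0.25 for Uqcrh, -0.28 for Cox6c, -0.40 for Cox7a2 and -0.14 for Ndufa1. With levels centred on the members they were 0.09 for Cox4i1 and 0.02 for Cox6a1. When single libraries were left out they ran from -1.07 to 0.16 for Ndufs1, -0.51 to 0.46 for Ndufb9, -0.36 to 0.79 for Ndufa4l2, -0.80 to 0.12 for Sdha, -0.78 to 0.29 for Sdhb, -0.56 to 0.11 for Sdhc, -0.67 to 0.28 for Sdhd, -1.01 to 0.02 for Uqcrc1 and -0.66 to 0.49 for Uqcrfs1. They ran from -0.92 to 0.22 for Cyc1, -0.37 to 0.51 for Cox4i1, -0.75 to 0.44 for Cox5a, -0.35 to 0.37 for Cox6a1, -0.10 to 0.94 for Cox7a2, -0.60 to 0.20 for Cox8a, -0.93 to 0.02 for Atp5f1a, -0.65 to 0.28 for Atp5f1b and -0.29 to 0.11 for Atp5mc1. The difference of shares ran, in percentage points, from -0.0115 to 0.151 for Cox6a2, -0.886 to 0.695 for Ndufa4l2 and -3.70 to 0.00265 for Atp5mc1, and that of Ndufa4l2 was 0.456 with only saline replicates 2 and 3 as controls.

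Depth limits Cox8c, Atp5hl1 and Cox6a2 most, with 1, 2 and 32 fragments over all 8 libraries, and then Ndufa13-ps1, Cox6b2, Cox7a2l2 and Ndufs6, with 277 to 803. Cox8b and Ndufa4l2 had libraries at 0. For the abundant members the spread between libraries, not counting error, sets the precision.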
